A study of Mus musculus with 10 samples.

Results

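The 10 genes described here are *Dusp6* and 9 of its relatives among the MAP kinase feedback inhibitors, found by symbol among the 55453 genes of a count table of microglia. *Dusp6* was chosen for its measured difference between GA libraries whose titles begin with 394 and with 400, and that contrast is therefore described without a test.

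Feedback inhibitors of MAP kinases switch off the signal that switched them on. *Dusp1*, *Dusp2*, *Dusp5*, *Dusp6*, *Dusp7*, *Dusp10* and *Dusp16* encode dual-specificity phosphatases, which remove phosphate from both the threonine and the tyrosine of active ERK, JNK or p38 kinases. *Spry1*, *Spry2* and *Spred1* encode adaptor proteins that dampen the path from receptor tyrosine kinases through Ras to ERK. Several of these genes are themselves induced by ERK, so their transcripts are often used as a readout of the activity of the pathway, and in microglia the receptor of colony-stimulating factor is a well-known source of that activity.

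The 10 genes were measured in microglia sorted as CD45int CD11b+ cells from the hippocampi of female 3xTg mice older than 15 months. According to the study's methods these mice were retired breeders of a homozygous colony and carry, among their alleles, mutated human APP and MAPT genes driven by a Thy1 promoter, so every library of both groups shares the same genotype. The 5 control libraries came from mice injected with PBS, and 5 libraries came from mice injected with glatiramer acetate (GA), a peptide drug for multiple sclerosis, at 0.1 mg weekly for about 8 weeks. In the first week both groups had a further injection, according to the study's methods. By title, all PBS libraries carry prefix 388, GA libraries 394_1 and 394_2 carry prefix 394, and GA libraries 400_1, 400_2 and 400_3 carry prefix 400. What the prefixes stand for is not given in the sources used here, and since no prefix holds both treatments, prefix and treatment cannot be told apart. It is also not stated whether a library is 1 mouse or a pool, so the spread between libraries may be partly technical.

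Of the 10 genes, 9 passed the filter on low counts, as did 14481 genes in all, and *Spry2* did not. Library totals ran from 32332185 to 38764643 counts, and levels are given as CPM, that is counts scaled to the library total after TMM normalisation. The 9 microglial marker genes, among them *P2ry12*, *Tmem119* and *Cx3cr1*, summed to between 53820 and 63890 CPM in each library. Of other cells, the 6 neuronal and 8 lymphocyte markers summed to at most 1.75 and 1.56 CPM, the 6 endothelial markers to 62.2 to 75.9 CPM and the 6 oligodendrocyte markers to 175 to 218 CPM. The 8 neutrophil markers varied most, from 37.9 to 446 CPM in PBS and from 10.9 to 169 CPM in GA libraries, and their part in the results was not tested. PBS library 388_4 stood apart for several members, and the members' values that rest on it are also given without it.

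*Dusp6*, which encodes a cytoplasmic phosphatase selective for ERK, was by far the most abundant of the set. Its position in GRCm38 is chr10:99263231-99267489 (plus strand), with 4 merged exon blocks of 3132 bases in GENCODE M21, and overlaps no other annotated gene. The bases just before its start are shown because *Dusp6* is a classical ERK target and ETS factors, which ERK phosphorylates, bind around the core GGAA. The sequence is from RefSeq (GRCm38.p6), plus strand, chr10:99262981-99263230, and capitals mark each GGAA on either strand.

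Dusp6: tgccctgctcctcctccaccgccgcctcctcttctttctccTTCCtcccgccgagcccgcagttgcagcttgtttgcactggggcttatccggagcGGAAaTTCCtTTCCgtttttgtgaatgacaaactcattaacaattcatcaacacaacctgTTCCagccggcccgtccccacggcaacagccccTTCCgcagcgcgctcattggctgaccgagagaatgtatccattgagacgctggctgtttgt

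This window held 6 matches to GGAA, a number reached by 8.69% of the 32851 RefSeq promoter windows of the same 250 bases. At least 1 match was found in 93.4% of all windows and in those of 7 of the 10 genes. The longer form CCGGAA, present in 12% of windows, and the AP-1 motif TGANTCA, present in 6.75%, were found in none of the 10. All windows follow the RefSeq starts, and those of *Dusp1* and *Dusp10* lie 53656 and 21079 bases inside the intervals that GENCODE gives these genes. Such matches describe the letters only and are not evidence of binding.

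Compared between genes per length, *Dusp6* had 301 ± 42.8 CPM per kb of merged exons (SD, n = 10), which placed it 91st from the top of 14375 expressed genes of known length. *Dusp7*, the other ERK-selective cytoplasmic phosphatase of the set, followed at 53.3 ± 9.59 CPM per kb (SD, n = 10). *Spred1*, whose product acts on Ras together with neurofibromin, had 21.0 ± 2.91 CPM per kb (SD, n = 10) and *Spry1* had 12.9 ± 2.95 CPM per kb (SD, n = 10). The ranges over libraries of *Dusp6*, *Dusp7* and *Spred1* did not overlap each other, whereas those of *Spred1* and *Spry1* did. *Dusp1*, the prototype of the inducible nuclear phosphatases, ranged from 3.32 to 25.3 CPM per kb and so overlapped both *Spry1* and *Spred1*. *Dusp16* and *Dusp10*, whose products act mainly on JNK and p38, had 1.40 ± 0.318 and 1.22 ± 0.370 CPM per kb (SD, n = 10), and *Dusp2*, a nuclear phosphatase of blood cells, had 1.16 ± 0.388 CPM per kb (SD, n = 10). These 3 overlapped one another and were lower than *Dusp1* in every library. *Dusp5*, a nuclear phosphatase for ERK, was lowest of the tested members at 0.468 ± 0.219 CPM per kb (SD, n = 10), with a range that overlapped that of *Dusp2*. *Spry2* (chr14:105891947-105896819, minus strand), whose product also restrains receptor tyrosine kinase signalling, was counted 4 times in PBS library 388_1 and 7 times in GA library 400_2. It was at 0 in the other 8 libraries, where a count of 0 allows for up to 3 counts, or 0.0772 to 0.0930 CPM, by counting error alone.

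**Figure D1:**
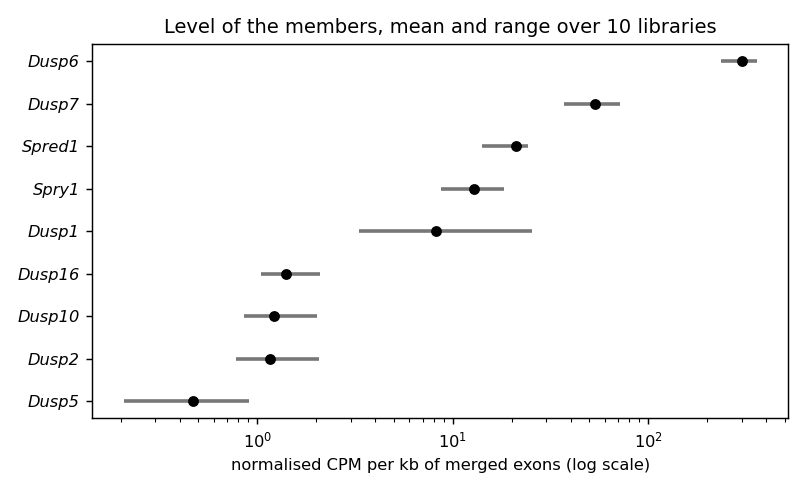
Level of the 9 tested genes in normalised CPM per kb of merged exons, on a log axis. Points are means and lines run from the lowest to the highest of the 10 libraries. *Dusp6*, at a mean of 301 CPM per kb, lies above the range of every other gene of the set.

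The comparison the study was built on is GA against PBS. No member differed between the treatments beyond the spread between libraries. With edgeR's quasi-likelihood test, 0 of the 9 tested members had an adjusted p-value under 0.05, as did 0 of all genes tested (0.0%), and 0 of the 9 had an unadjusted p-value under 0.05, against 5.75% of all genes. DESeq2 gave an unadjusted p-value to all 10 members and to 27495 genes, not all of which received an adjusted one (*Spry2* did not). It called 0 members at an adjusted p-value under 0.05, where the genes called were 0.00727% of the 27495. Under an unadjusted 0.05 it had 1 member, against 4.53% of the 27495. With limma-voom 0 members passed either threshold, against 0.0% and 6.12% of all genes. The fitted log2 fold change was above 0 for 2 members and below 0 for 7, with a median of -0.15, while the median over all tested genes was 0.000199. This split rested in part on PBS library 388_4, without which 4 members were above 0 and 5 below, with a median of -0.0195. It rested also on the title prefix, since with the GA libraries of prefix 394 alone 5 members were above 0 and 4 below (median 0.072), and with those of prefix 400 alone 1 was above and 8 below (median -0.37). For none of the 9 did all GA libraries lie above, or all below, the PBS libraries, where 0.891% of all tested genes were separated in one of these ways. In two-sided exact permutation tests over the libraries the members' p-values ran from 0.119 (*Dusp5*) to 0.873 (*Dusp2*).

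For *Dusp6* the PBS libraries had 924, 947, 1005, 1041 and 1043 CPM in order of level. GA libraries 394_1 and 394_2 had 1047 and 1124 CPM, and GA libraries 400_1, 400_2 and 400_3 had 773, 787 and 741 CPM. Each of these values rests on at least 26756 counts. The 2 GA libraries of prefix 394 were thus higher than every PBS library, and the 3 of prefix 400 lower than every PBS library. The PBS mean was 992 ± 54.1 CPM (SD, n = 5) and the GA mean 894 ± 178 CPM (SD, n = 5). The fold change was -0.15 on the log2 scale (standard error 0.11, adjusted *P* = 0.910, edgeR), and the two-sided exact permutation test on log2 CPM gave *P* = 0.206, where the smallest p-value possible is 0.00794. Within the PBS group, which the choice of *Dusp6* did not use, its coefficient of variation was 5.45%. Among the 216 genes within 2-fold of its PBS level, the median was 8.87%, and 14.4% of them varied less. In the GA group the coefficient of variation was 19.9%.

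**Figure D2:**
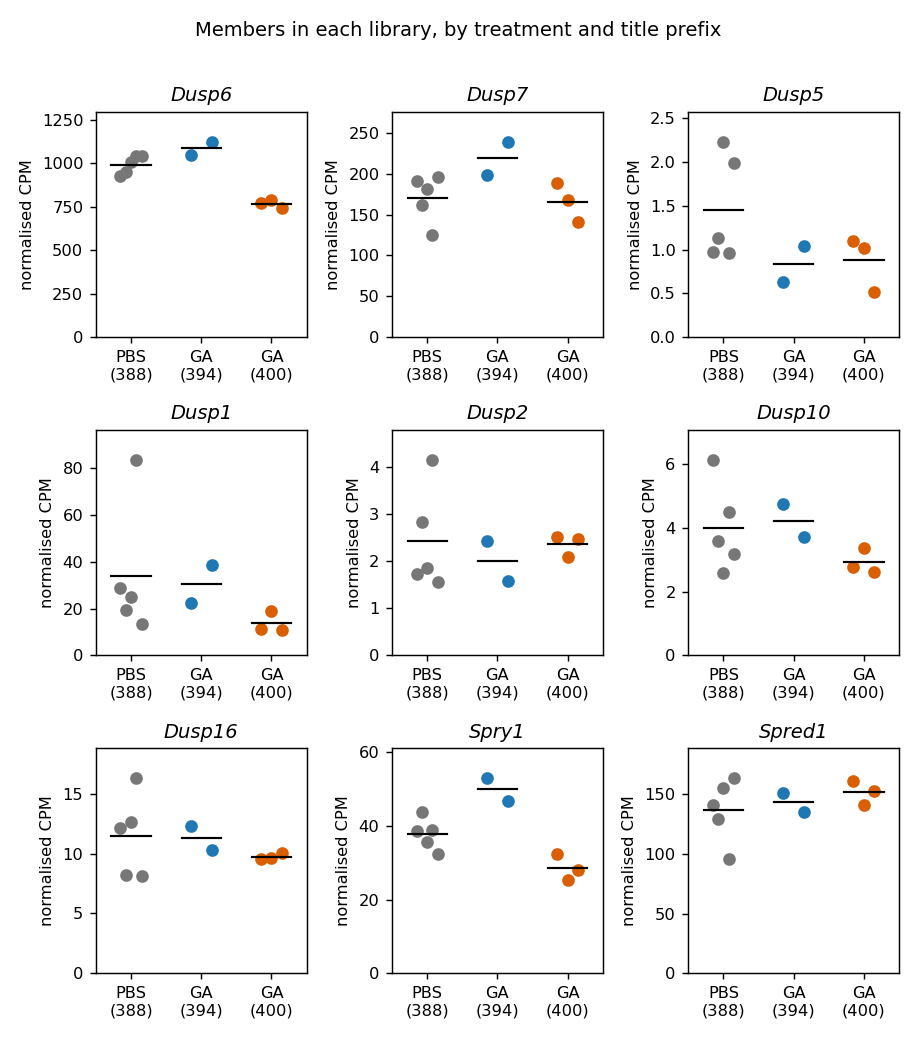
Normalised CPM of 9 members in each library. Grey points are the 5 PBS libraries (prefix 388), blue the 2 GA libraries of prefix 394, orange the 3 GA libraries of prefix 400, and bars are means. The *Dusp6* and *Spry1* points of prefix 394 lie above all PBS points and those of prefix 400 below them, and in the *Dusp1* panel PBS library 388_4 stands alone at 83.6 CPM.

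*Spry1*, whose product inhibits signalling from receptor tyrosine kinases to ERK, had the same order of the 3 title prefixes, though not of the libraries within them. It had 38.5, 43.7, 35.7, 38.8 and 32.4 CPM in PBS libraries 388_1 to 388_5. GA libraries 394_1 and 394_2 had 53.0 and 46.7 CPM, while 400_1, 400_2 and 400_3 had 32.35, 25.3 and 27.96 CPM. The prefix 394 libraries were again above and the prefix 400 libraries below every PBS library, although 400_1 lay only just under PBS library 388_5, at 32.42 CPM. The PBS mean was 37.8 ± 4.18 CPM (SD, n = 5) and the GA mean 37.1 ± 12.2 CPM (SD, n = 5). On the log2 scale the fold change was -0.029 (standard error 0.18, adjusted *P* = 0.990, edgeR). *Spry1* (chr3:37639947-37644598, plus strand) shares 710 of its 2906 merged exon bases with *Gm42922* on the other strand, which was itself counted 1 to 18 times per library. Since the strand setting of the counting is not stated, reads of the 2 genes within the shared bases cannot be told apart. The 250 bases before its start (RefSeq, GRCm38.p6, plus strand, chr3:37639697-37639946) are shown for comparison with *Dusp6*, with GGAA in capitals.

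Spry1: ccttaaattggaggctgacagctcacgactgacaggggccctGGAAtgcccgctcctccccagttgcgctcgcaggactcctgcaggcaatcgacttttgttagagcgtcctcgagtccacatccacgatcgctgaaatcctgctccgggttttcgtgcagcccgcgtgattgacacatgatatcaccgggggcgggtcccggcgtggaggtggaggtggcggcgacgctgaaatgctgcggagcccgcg

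The *Spry1* window held 1 match where that of *Dusp6* held 6.

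*Dusp7* (chr9:106368632-106375724, plus strand) had 191, 161, 181, 125 and 196 CPM in PBS libraries 388_1 to 388_5, with 388_4 the lowest of all 10. The GA libraries of prefix 394 had 198 and 239 CPM, both above every PBS library, and those of prefix 400 had 188, 168 and 141 CPM, all within the PBS range. The PBS mean was 171 ± 28.9 CPM (SD, n = 5) and the GA mean 187 ± 36.5 CPM (SD, n = 5). The fold change on the log2 scale was 0.13 (standard error 0.14, adjusted *P* = 0.945, edgeR). Without 388_4 the PBS mean was 182 ± 15.2 CPM (SD, n = 4), the fold change was 0.036 on the log2 scale, and library 400_3 was below the remaining PBS libraries. Without GA library 394_2 the fold change was 0.026.

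*Spred1* (chr2:117121374-117182279, plus strand) overlapped between the GA prefixes. PBS libraries 388_1 to 388_5 had 141, 129, 155, 96.1 and 164 CPM, and the GA libraries, in the order of their titles, had 151, 135, 161, 141 and 152 CPM. Apart from 388_4, which was the lowest, the libraries of both treatments overlapped throughout. The fold change was 0.11 on the log2 scale (standard error 0.12, adjusted *P* = 0.940, edgeR) and fell to 0.010 without 388_4.

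*Dusp1* (chr17:26505590-26562128, minus strand) varied widely among the PBS libraries. It had 28.9, 19.2, 24.9, 83.6 and 13.4 CPM in PBS libraries 388_1 to 388_5, 22.2 and 38.7 CPM in the prefix 394 libraries and 11.2, 18.9 and 11.0 CPM in the prefix 400 libraries. PBS library 388_4 alone set the high PBS mean of 34.0 ± 28.3 CPM (SD, n = 5), which was 21.6 ± 6.78 CPM (SD, n = 4) without it, against 20.4 ± 11.3 CPM (SD, n = 5) with GA. The fold change was -0.74 on the log2 scale (standard error 0.45, adjusted *P* = 0.895, edgeR) with all libraries and -0.085 without 388_4. The coefficient of variation over the PBS libraries was 83.3%, where the median of 4389 genes within 2-fold of its level was 12.3%. Without 388_4 it was 31.4%, below that of *Dusp10* (40.5%) and *Dusp5* (39.3%) in the same 4 libraries. It shares 11 exon bases with *Ergic1* on the other strand, which was counted 3721 to 4735 times per library, more than *Dusp1* itself at 387 to 2699 counts. Of the 19 tested immediate early and dissociation genes, 388_4 had the highest PBS level of 9 and the lowest of 1, and 388_3, the next most often highest, had the highest of 7 and the lowest of 0. Among those highest in 388_4 were *Klf4* at 17.9 CPM against 4.30 to 5.08 CPM in the other PBS libraries and *Nfkbia* at 305 CPM against 124 to 194 CPM, while *Ier5* was lowest there, at 121 CPM against 170 to 187 CPM. The 7 markers of border-associated macrophages summed to 255 CPM there and to 49.5 to 150 CPM in the other PBS libraries, and the 6 monocyte markers to 89.0 CPM against 33.5 to 78.0 CPM. The part of these cells in the *Dusp1* value was not tested, and in bulk RNA more cells of a type cannot be told apart from more RNA per cell.

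*Dusp1* and *Dusp5* are rapidly inducible genes, and the windows before their starts carry the 2 rarest motifs found in the set, which is why they are printed here. The RefSeq start of *Dusp1* used for this window is at 26508472, so the window belongs to the RefSeq model only. The *Dusp1* stretch (RefSeq, GRCm38.p6, minus strand, chr17:26508588-26508683) holds the cAMP response element TGACGTCA and a further copy of its core TGACG, both in capitals. The *Dusp5* stretch (plus strand, chr19:53529043-53529102) holds a pair of adjoining CArG boxes, the site of serum response factor, in capitals.

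Dusp1: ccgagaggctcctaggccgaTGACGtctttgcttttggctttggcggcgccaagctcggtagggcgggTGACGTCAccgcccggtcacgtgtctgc

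Dusp5: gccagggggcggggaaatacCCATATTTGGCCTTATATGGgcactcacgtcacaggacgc

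TGACGTCA occurs in 1.55% of the 32851 windows, on either strand, and among the 10 genes in that of *Dusp1* alone. Its core TGACG, which also counts the full element, occurs in 17.8% of windows and in those of *Dusp1*, *Dusp5* and *Dusp16*. A CArG box occurs in 1.47% of windows and 2 or more in 0.0183%, and among the 10 genes only *Dusp5* holds any.

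*Dusp5* itself (chr19:53529109-53542431, plus strand) was scarce, at 31 to 73 counts per PBS library and 20 to 39 per GA library. It had 0.968, 1.14, 2.23, 0.960 and 1.98 CPM in PBS libraries 388_1 to 388_5 and 0.629, 1.04, 1.10, 1.02 and 0.514 CPM in the GA libraries in the order of their titles. Libraries 394_1 and 400_3 were below every PBS library and the other 3 GA libraries overlapped with the PBS range. The log2 fold change of -0.76 (standard error 0.37, adjusted *P* = 0.872, edgeR) was the furthest from 0 of the set, and its unadjusted p-value was 0.0591 with edgeR and 0.0414 with DESeq2 (adjusted *P* = 0.749). Here the prefixes did not part, with means of 0.834 CPM in 394 and 0.878 CPM in 400. *Dusp5* shares 547 exon bases with *AC137853.2* on the other strand, which was counted 0 to 6 times per library.

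The JNK and p38 phosphatases *Dusp10* and *Dusp16*, and the nuclear phosphatase *Dusp2*, were low and did not differ between treatments beyond their spread. *Dusp10* (chr1:184013302-184075636, plus strand) had 2.60 to 6.15 CPM with PBS, with a median library at 3.59 CPM, and 2.62 to 4.76 CPM with GA, and the fold change was -0.22 on the log2 scale (standard error 0.26, adjusted *P* = 0.949, edgeR), and -0.0055 without PBS library 388_1. *Dusp16* (chr6:134715468-134792625, minus strand) had 8.16 to 16.3 CPM with PBS, where 388_4 was again the highest, and 9.56 to 12.3 CPM with GA. The fold change was -0.15 on the log2 scale (standard error 0.18, adjusted *P* = 0.950, edgeR) and 0.010 without 388_4. *Dusp2* (chr2:127336159-127338376, plus strand) had 1.56 to 4.15 CPM with PBS, highest in 388_4, and 1.57 to 2.51 CPM with GA. Here the fold change was -0.13 on the log2 scale (standard error 0.30, adjusted *P* = 0.974, edgeR) and 0.15 without 388_4.

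**Figure D3:**
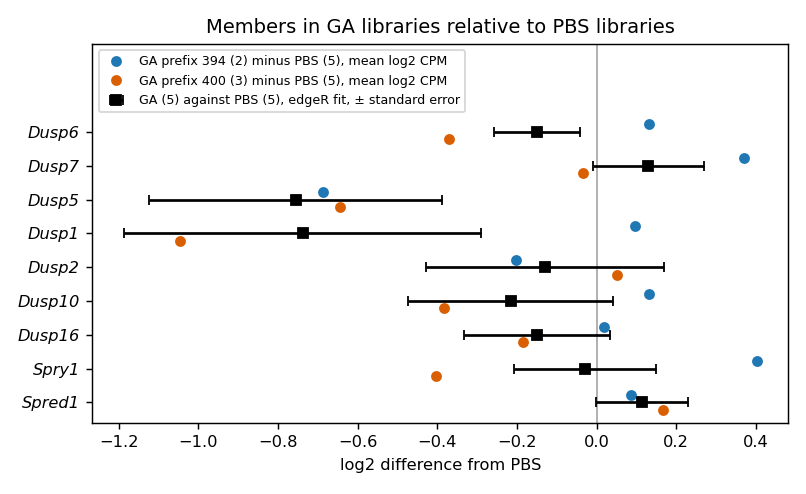
Log2 difference of each member from the PBS libraries. Black squares with bars are the edgeR log2 fold change and its standard error for 5 GA against 5 PBS libraries, and blue and orange points are the differences in mean log2 CPM of the 2 GA libraries of prefix 394 and the 3 of prefix 400 from the same 5 PBS libraries. For *Dusp6*, *Spry1*, *Dusp1*, *Dusp10*, *Dusp7* and *Dusp16* the blue point lies above 0 and the orange point below it, though barely, at -0.03 for *Dusp7* in orange and at 0.02 for *Dusp16* in blue. In an edgeR fit of prefix 394 alone against PBS, *Dusp1* and *Dusp16* were instead below 0, at -0.15 and -0.019.

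The GA libraries parted by title prefix, which is what *Dusp6* was chosen on, so the following values are a description. Both prefixes are set against the same PBS libraries. *Dusp6* averaged 1085 CPM in prefix 394 and 767 CPM in prefix 400, a ratio of 1.42, with log2 differences from PBS of 0.13 and -0.37. The ratio of prefix 394 to prefix 400 was 1.75 for *Spry1*, 2.23 for *Dusp1*, 1.45 for *Dusp10*, 1.32 for *Dusp7* and 1.16 for *Dusp16*. For these 6 genes both libraries of prefix 394 were above all 3 of prefix 400. *Dusp2*, *Dusp5* and *Spred1* overlapped, with ratios of 0.847, 0.950 and 0.947. Of the 9 tested members, 6 were thus higher in prefix 394 without overlap, which 13.5% of all tested genes were, and 0 were lower without overlap, which 14.2% of all genes were. *Dusp6* is among these 6 and among the 2 members named below. It was chosen on this contrast, so these counts depend on that choice. The prefix 400 libraries lay below every PBS library for *Dusp6* and *Spry1*, as for 2.81% of all tested genes. In addition, both prefix 394 libraries lay above every PBS library for the same 2 members, an order of the prefixes that 17 of the 14481 genes showed (0.117%). For *Dusp6* this order was the same in CPM without TMM factors and in CPM scaled by DESeq2's size factors. For *Spry1* it was the same with DESeq2's size factors, but without TMM factors the highest prefix 400 library, at 31.9 CPM, was above the lowest PBS library, at 30.9 CPM.

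Transcripts that rise early after a stimulus, many of which are also induced when tissue is dissociated, were set beside these values. Of 19 tested immediate early and dissociation genes, 9 were higher in prefix 394 without overlap and 0 were lower, where 13.5% and 14.2% of all tested genes were. The other 10, among them *Fos*, *Egr1* and *Atf3*, overlapped between the prefixes, and 0 of the 19 had the full order of prefixes of *Dusp6*. The list of 20 summed to 2191 and 2580 CPM in the 2 libraries of prefix 394, to 1824 to 1947 CPM in those of prefix 400 and to 1939 to 2418 CPM in the PBS libraries. *Jun*, a subunit of AP-1, had 275 and 509 CPM in prefix 394 and 160 to 175 CPM in prefix 400, with 160 to 277 CPM in PBS libraries. *Socs3*, an inhibitor of cytokine signalling, had 66.0 and 73.9 CPM in prefix 394, above all other libraries, and 42.3 to 48.1 CPM in prefix 400. The list sum of library 394_1 thus lay within the PBS range. The part of these early genes in the *Dusp6* values was not tested.

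**Figure D4:**
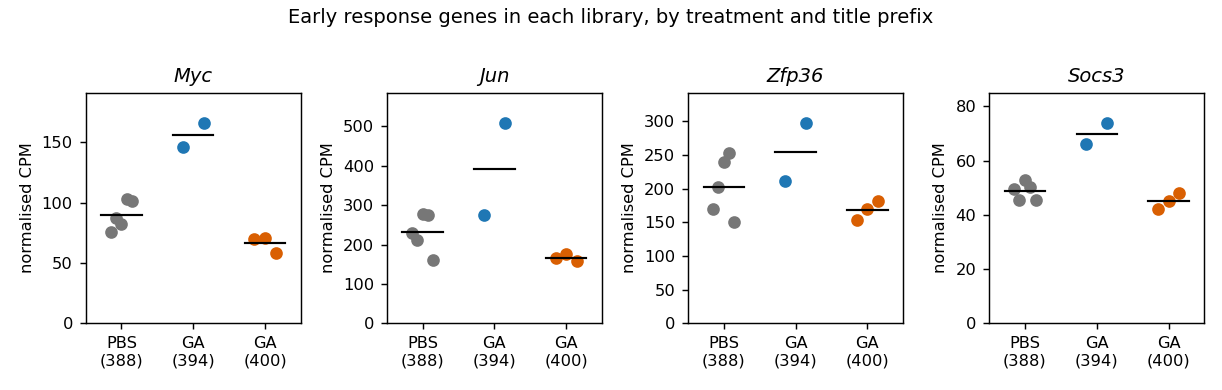
Normalised CPM of 4 early response genes in each library, with groups and colours by treatment and title prefix and bars at the means. *Myc* and *Socs3* of prefix 394 lie above all other libraries, and *Myc* of prefix 400 lies below all PBS libraries.

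Of the 13 tested ERK target genes, 1 (7.69%) was higher in prefix 394 without overlap, against 13.5% of all tested genes, and 0 were lower. That gene, *Myc*, which encodes a transcription factor of growth, had 146 and 166 CPM in prefix 394 and 58.5 to 71.1 CPM in prefix 400. Its PBS libraries had 75.7 to 103 CPM, so *Myc* also had the order of prefixes seen for *Dusp6*. *Egr1*, a standard early target of ERK, did not follow it, with 45.3 and 48.7 CPM in prefix 394, 29.8 to 47.2 CPM in prefix 400 and 22.6 to 47.7 CPM with PBS. *Etv5*, an ETS factor often raised together with *Dusp6*, had 262 and 241 CPM in prefix 394 and 249 to 281 CPM in prefix 400. The summed level of the 15 genes was 962 and 994 CPM in prefix 394, 863 to 936 CPM in prefix 400 and 845 to 962 CPM with PBS.

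Marker lists of 2 other cell types also parted by prefix. The 6 astrocyte markers summed to 325 and 353 CPM in prefix 394 and to 249 to 273 CPM in prefix 400, with 246 to 303 CPM in the PBS libraries. Of these sums *Slc1a3* alone supplied 243 to 349 CPM, and *Gfap* and *Aqp4* reached at most 4.74 and 0.463 CPM in any library. The 7 border-associated macrophage markers went the other way, at 49.1 and 88.6 CPM in prefix 394 and 94.9 to 195 CPM in prefix 400. The part of either cell type in the prefix values was not tested. The neutrophil, monocyte and endothelial lists overlapped between the prefixes.

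Among the 9818 other genes with a mean of at least 5 CPM, the 5 whose log2 CPM followed *Dusp6* most closely over the 10 libraries were *Zfp512*, *Tmem104*, *Dock11*, *Taf3* and *Ogfrl1*. Their Pearson correlations with *Dusp6* were 0.926, 0.914, 0.909, 0.902 and 0.900, given as a description, since all genes share the same libraries. *Zfp512*, a zinc finger gene, had 99.7 to 108 CPM with PBS, 106 and 114 CPM in prefix 394 and 87.7 to 93.3 CPM in prefix 400.

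For the rest of the pathway no gene passed the adjusted test between treatments. Of 18 further feedback inhibitors and phosphatases, 10 passed the filter on low counts, 6 with a fold change above 0 and 4 below, and 0 had an unadjusted p-value under 0.05. Their median log2 fold change was 0.0073, and the smallest p-values belonged to *Rasa2*, a Ras GTPase-activating protein (log2 fold change -0.23, standard error 0.11), and *Dusp8*, a JNK phosphatase (log2 fold change 0.30, standard error 0.27). *Dusp4*, *Dusp9*, *Spry4* and *Spred3* were among the 8 that did not pass, with at most 12, 17, 18 and 22 counts in any library. Between the GA prefixes 3 of the 10 were higher in prefix 394 without overlap and 2 were lower, where 13.5% and 14.2% of all genes were.

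All 20 genes of the ERK cascade passed the filter, 6 with a fold change above 0 and 14 below, with a median of -0.046. Of these, 3 had an unadjusted p-value under 0.05, all lower with GA, and 0 had an adjusted one. Over all 14481 genes 5.75% had such an unadjusted p-value, 459 lower and 374 higher with GA. *Nras*, a Ras GTPase, had means of 69.4 ± 5.59 CPM in PBS and 60.1 ± 2.65 CPM in GA libraries (SD, n = 5 each). For *Sos2*, an exchange factor for Ras, these were 34.9 ± 3.86 and 29.0 ± 3.27 CPM, and for *Mapk3*, which encodes ERK1, 138 ± 10.7 and 124 ± 3.72 CPM (SD, n = 5 each). Their adjusted p-values from edgeR ran from 0.847 to 0.854. Of the 15 tested genes of the JNK and p38 cascades, 11 had a fold change above 0 and 4 below, with a median of 0.050, and 1 higher and 1 lower gene had an unadjusted p-value under 0.05, where 5.75% of all genes did. *Mapk8*, which encodes JNK1, a target of the *Dusp10* and *Dusp16* products, had means of 11.9 ± 2.39 CPM in PBS and 7.69 ± 0.975 CPM in GA libraries (SD, n = 5 each), with a fold change of -0.63 on the log2 scale (standard error 0.15, adjusted *P* = 0.847, edgeR). Its GA libraries, at 6.25 to 8.93 CPM, were all below the PBS libraries, at 9.71 to 15.7 CPM, a separation found in one direction or the other in 0.891% of all tested genes. *Nras* was separated in the same way, at 57.0 to 63.9 CPM with GA and 64.5 to 78.5 CPM with PBS. *Mapkapk2*, a kinase downstream of p38, had 149 ± 23.5 and 175 ± 9.04 CPM (SD, n = 5 each), with an adjusted *P* of 0.854 (edgeR). By GA prefix, 4 of the 20 ERK cascade genes were higher in prefix 394 without overlap and 5 were lower. For the 15 JNK and p38 genes these counts were 2 and 0, where 13.5% and 14.2% of all tested genes were higher and lower.

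Among the 13 tested ERK target genes 5 had a fold change above 0 and 8 below for GA against PBS, with a median of -0.097 and 0 unadjusted p-values under 0.05, against the same 5.75% of all genes. The smallest p-values were those of *Etv1*, an ETS factor (log2 fold change -0.20, standard error 0.11), and *Egr2* (log2 fold change 0.49, standard error 0.30). Of the 19 immediate early and dissociation genes 7 had a fold change above 0 and 12 below, with a median of -0.015, and 1 (*Klf2*) had an unadjusted p-value under 0.05, where 5.75% of all genes did. *Klf2*, a transcription factor, had means of 9.13 ± 4.27 CPM in PBS libraries, with 16.6 CPM in 388_4 and a mean of 7.25 ± 0.885 CPM without it (SD, n = 4), and 6.07 ± 0.643 CPM in GA libraries (SD, n = 5 each; adjusted *P* = 0.854, edgeR).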

How the data were processed

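RNA of sorted hippocampal microglia was sequenced as single-end reads in 10 libraries, 5 PBS and 5 GA, grouped by their treatment labels. The authors deposited raw counts of reads per gene, as whole numbers without normalisation. The submitters' processing notes name bcl2fastq 2.19.0, fastp 0.20.0, STAR 2.7.0f, Subread 1.6.4 with featureCounts, DESeq2 and the build GRCm38.p6. Parameters, annotation and strand setting are not given in the sources used here. Of the columns, 0 were without a sample.

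All genes were fitted with edgeR 4.0.16 (R 4.3.3): filterByExpr at a minimum count of 10, TMM, a quasi-likelihood F-test of GA against PBS without covariate, and Benjamini-Hochberg adjustment over all genes tested, with a threshold of 0.05. Standard errors are the log2 fold change divided by the square root of F. Single members were compared by two-sided exact permutation over the 252 arrangements of libraries on log2(CPM + 0.1). Positions and exon lengths came from GENCODE M21 (GRCm38), and promoter sequences from RefSeq (GRCm38.p6), which held all 10 members. Alternatives used DESeq2 1.42.0, limma-voom (limma 3.58.1), DESeq2's size factors, no filter, the title number as a block, either GA prefix alone, each library left out, a pseudocount of 1 and unscaled CPM. Figures used matplotlib 3.10.9. The scripts were tested on simulated data.

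The members and gene lists were chosen with earlier results of these data known. Named genes were all members, list genes with an unadjusted p-value under 0.05 or else the 2 with the smallest, and the 5 genes most correlated with *Dusp6*. *Myc*, *Jun*, *Socs3*, *Zfp36*, *Egr1*, *Etv5*, *Klf4*, *Nfkbia*, *Pik3r1*, *Nlrp3*, *Trib1*, *Ier5*, *Fos*, *Atf3* and the untested genes named by their counts were chosen after their values were seen. Counting limits cover counting error only.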

Additional observations from a re-analysis of the deposited data

Results flagged for a closer look

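In 20 groups of 5 libraries, 10 members with PBS and with GA, a library of *Dusp1* and one of *Dusp16* lay further from the others than Dixon's limit of 0.71 of the range, where chance gives about 1 in 20 groups. Both groups of *Spry2* also passed that limit, but with 4 of 5 libraries at 0 any count in the fifth does so, and no weight is given to them. *Dusp1* had 83.6 CPM in PBS library 388_4, against 28.9 CPM in the next highest PBS library. *Dusp16* had 12.3 CPM in GA library 394_1, against 10.3 CPM in the next highest GA library. *Spry2* had 0.105 CPM in PBS library 388_1, from 4 counts, and 0.184 CPM in GA library 400_2, from 7 counts, with all other libraries at 0.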

How the results depend on the processing

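No alternative called a member, and of the 153 alternative fits of the members' fold changes 142 kept the direction. Over all genes DESeq2 called 2, *Gm1070* and *Dcstamp*, and edgeR called 0 to 1 when each library was left out, the 1 being *Gm15920* without GA library 394_1. With the GA libraries of prefix 394 alone the log2 fold change was 0.14 for *Dusp6*, 0.41 for *Spry1* and 0.087 for *Dusp10*, and with those of prefix 400 alone it was -0.039 for *Dusp7*, each opposite in sign to the value with all libraries. Leaving out each library, the fold change ran from -0.25 to 0.15 for *Dusp2* and from -0.25 to 0.010 for *Dusp16*, both highest without PBS library 388_4, and from -0.19 to 0.086 for *Spry1*, which was above 0 without 388_2, 400_1, 400_2 or 400_3. The matching differences of mean log2 CPM ran from -0.18 to 0.16, from -0.21 to 0.035 and from -0.23 to 0.040, and turned above 0 without 388_2, 388_4 or 394_2 for *Dusp2*, without 388_4 for *Dusp16* and without 400_2 or 400_3 for *Spry1*. For *Dusp6* the fold change ran from -0.25 to -0.089, for *Dusp10* from -0.36 to -0.0055 (without 388_1), for *Dusp7* from 0.026 (without 394_2) to 0.22, for *Spred1* from 0.010 (without 388_4) to 0.19 and for *Dusp1* from -1.10 (without 394_2) to -0.085 (without 388_4). With the title number as a replicate block it was -0.12 for *Dusp6*, 0.045 for *Dusp2*, -0.44 for *Dusp1*, 0.026 for *Dusp7*, -0.051 for *Dusp16* and -0.15 for *Spry1*, and 0 genes were called. Libraries that share a title number did not deviate together (correlations from -0.11 to 0.044), so the numbers were not taken as pairs. The cause of these changes was not tested. *Spry2* and *Dusp5* are limited by their few counts.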

Other observations

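Some of the 17 genes with the order of prefixes seen for *Dusp6*, prefix 394 above and prefix 400 below every PBS library, are given here by value, since the order was chosen after the data were seen and no test was run. Besides *Dusp6*, *Spry1* and *Myc* they include *Pik3r1*, a regulatory subunit of PI3 kinase, at 193 and 208 CPM in prefix 394, 172 to 189 CPM with PBS and 142 to 153 CPM in prefix 400. They also include *Nlrp3*, the sensor of an inflammasome, at 106 and 139 CPM, 71.4 to 99.1 CPM and 55.3 to 64.6 CPM in the same order, and *Trib1*, a pseudokinase that binds MAP kinase kinases, at 88.5 and 104 CPM, 74.7 to 85.1 CPM and 51.7 to 74.1 CPM.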
